A study of Mus musculus with 4 samples.

Results

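The effect of TGFb and IL6 given together was compared with the sum of their single effects in T-effector cells, gene by gene, so that each value below says how far the combination departed from additivity. The measurements were the T-effector channels of 13 two-colour Agilent whole mouse genome arrays, 13 of the 26 channels in all, and the other 13 channels held Treg RNA. CD4+ cells from lymph node were cultured for 4 days in plates coated with anti-CD3 at 1 ug/ml, and cytokines were present for 3 days. The joint condition held IL2 at 100 units/ml, TGFb at 4 ng/ml and IL6 at 25 ng/ml (4 arrays). The single conditions held IL2 with TGFb alone (3 arrays) or IL2 with IL6 alone (3 arrays), and the last condition held IL2 alone (3 arrays), so anti-CD3 and IL2 were common to every culture and no culture lacked IL2. The labels do not say how Treg and T-effector cells were separated, whether the arrays came from separate cultures or animals, or the strain and age of the mice, and p-values measure only the spread between these arrays.

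TGFb signals through receptor kinases and Smad proteins, and IL6 signals through its receptor, the shared chain gp130 and the transcription factor Stat3. In CD4 T cells that are activated through the T cell receptor, TGFb alone favours Foxp3 and a regulatory state, whereas TGFb with IL6 is the classic combination for the Th17 state, which is known for the cytokines Il17a and Il17f and the ligand-activated transcription factor Ahr. Socs3 is a feedback inhibitor that binds gp130 and is itself induced through Stat3.

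The interaction was the difference of differences on the log2 scale, (TGFb with IL6 minus IL6) minus (TGFb minus IL2). An interaction of 0 means that the joint fold change equals the product of the single fold changes, and an interaction of 1 means that it is double that product. Each SE and p-value came from a spread estimated over T-effector and Treg channels together, except where a fit on T-effector channels alone is named. Genes past an adjusted p of 0.05 were sorted by sign and by the order of the condition means. A synergistic rise had a positive interaction and its highest mean in the joint condition, and a synergistic fall had a negative interaction and its lowest mean there. An antagonised rise had a negative interaction with the joint mean not the lowest, and an antagonised fall had a positive interaction with the joint mean not the highest. These names describe the order of means and nothing else.

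The T-effector label was set against markers. All 9 of the 9 tested T cell markers were well above background in all 13 T-effector channels, against 0 of 10 myeloid and dendritic markers, 4 of 11 B cell markers, 5 of 10 CD8 T and NK markers and 2 of 8 erythroid and stromal markers. Every tested marker of these lists was well above background in at least 1 T-effector channel, so a count of 0 is not absence. The log2 signal of Foxp3, the defining transcription factor of Treg cells, lay between 6.07 and 7.20 in the T-effector channels, below its range of 7.89 to 9.18 in the Treg channels. Between 41.8% and 67.0% of probes were well above background in a T-effector channel. The arrays lay on 5 slides, and arrays 1, 2 and 3 of the joint condition each shared a slide and a dye with the TGFb array of the same number. Joint arrays 2 and 4 shared slide B, which held no IL2 or IL6 array, and IL6 arrays 1 and 3 shared slide E. The median Cy3 signal of negative controls was 118 to 123 on slide B and 3.6 to 25.4 on the other slides.

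Of 19931 genes tested, 196 passed the threshold, which is 0.983% of them. The interaction was above 0 for 139 (0.697%) and below 0 for 57 (0.286%), and 1499 genes had an unadjusted p under 0.05. Synergistic rises made up 129 of the 196, with a median interaction of 1.33 and a range of 0.66 to 4.29. For 116 of these 129 the 4 joint channels lay above all 9 other T-effector channels, an order found in 3.54% of all genes tested. Synergistic falls numbered 47, with a median of -1.02, and in 38 of them the joint channels lay below all others, an order found in 3.73% of all genes tested. Both classes were called on these same channels, so these orders are no separate support. Antagonised rises and antagonised falls numbered 10 each. These counts follow the order of means, and 18 of the 47 synergistic falls had a single effect above 0.5 log2. A rise with 1 cytokine that was lost with both can therefore count as a synergistic fall. With each array left out in turn, 111 of the 196 stayed past the threshold in all 13 fits. The median interaction over all genes tested was -0.03, and 16 of the 196 kept the name given by the array's design.

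**Figure D1:**
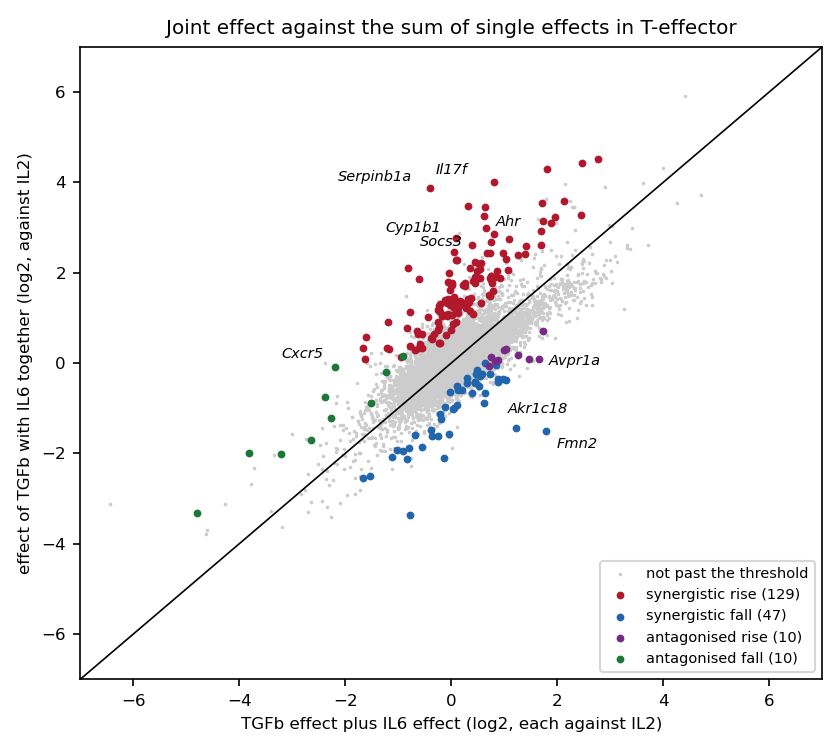
Effect of TGFb with IL6 against IL2 (y axis, log2) plotted against the sum of the TGFb effect and the IL6 effect (x axis, log2) in T-effector cells, with 1 point per gene and the line of equal values. The 129 synergistic rises lie above the line, with Serpinb1a and Il17f near 4 on the y axis, and the 47 synergistic falls and 10 antagonised rises lie below it.

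Many synergistic rises had single effects near 0. Single effects were both within 0.5 log2 of 0 in 74 of the 129 synergistic rises, and 101 of the 129 had a joint effect above 1 log2. In 19 of the 129 a single effect was more than 0.5 log2 below 0, so their positive interaction includes the reversal of a single-cytokine fall. Il17f, a cytokine that recruits neutrophils, had log2 signals of 10.53, 10.21, 10.36 and 10.47 in the joint condition, against 7.11, 6.70 and 6.68 with TGFb, 6.82, 6.75 and 6.80 with IL6, and 6.37, 6.40 and 6.37 with IL2. The joint channels lay more than 3 log2 above every other channel, while the single-cytokine channels stayed within 1 log2 of the IL2 channels. Its interaction was 3.19 ± 0.18 (SE), a 9.13-fold excess over the product of the single effects, with an adjusted p of 7.35e-10, and within the slides that hold both conditions of a pair the value was 3.16. The TGFb difference of Il17f was 3.61 log2 when IL6 was present, and 0.42 when it was not.

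Serpinb1a, a serine protease inhibitor of the ovalbumin-like serpin family, had the highest interaction of all genes tested. It had log2 signals of 10.85, 11.04, 10.69 and 10.83 in the joint condition, against 6.62, 6.90 and 6.62 with TGFb, 6.79, 6.81 and 6.80 with IL6, and 7.16, 6.80 and 6.97 with IL2. Only the joint condition stood apart, and both single-cytokine groups were within or below the IL2 range. The interaction was 4.29 ± 0.26 (SE), or 19.6-fold, with an adjusted p of 2.49e-09. Its paralogs Serpinb1b and Serpinb1c had interactions of 1.49 and 1.65, and cross-hybridisation among the 3 probes was not tested. Serpinb5, another serpin, was also higher with IL6 alone than with IL2. It had 10.15, 10.91, 10.40 and 10.64 in the joint condition, against 6.06, 6.04 and 6.03 with TGFb, 7.83, 8.55 and 8.30 with IL6, and 6.22, 6.15 and 6.31 with IL2. The TGFb and IL2 channels were not well above background, which makes the joint level at least 22.2-fold that with TGFb and at least 19.7-fold that with IL2. Its interaction was 2.49 ± 0.45 (SE, adjusted p = 0.00384).

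Fnbp1l, which binds membranes and promotes actin assembly, was higher in every joint channel than in any other. Its log2 signals were 10.18, 10.04, 9.70 and 10.20 in the joint condition, against 6.87, 7.23 and 6.62 with TGFb, 6.73, 6.56 and 6.34 with IL6, and 6.59, 6.34 and 6.66 with IL2. The interaction was 3.16 ± 0.24 (SE, adjusted p = 5.74e-08). Prss12, a secreted serine protease known from neurons, had 10.03, 10.43, 9.98 and 10.27 in the joint condition, against 6.98, 7.37 and 7.04 with TGFb, 7.27, 7.34 and 7.32 with IL6, and 6.92, 6.81 and 7.0 with IL2. Its interaction of 2.66 ± 0.29 (SE, adjusted p = 1.69e-05) came with joint channels that did not overlap the others. Lgmn, the lysosomal protease legumain, had an interaction of 2.22 ± 0.25 (SE, adjusted p = 2.00e-05), and its joint channels spanned 10.03 to 10.38 while the 9 others spanned 7.30 to 8.22. Gpr15, a receptor that guides T cells to the large intestine, had joint signals of 9.83, 8.77, 9.52 and 8.70, against a highest value of 6.84 with TGFb, 6.65 with IL6 and 6.23 with IL2. The joint arrays of Gpr15 fell into a higher pair, arrays 1 and 3, and a lower pair, arrays 2 and 4, which shared slide B. The part of the slide in this split was not tested. All joint arrays of Gpr15 were above every other channel, and the interaction was 2.35 ± 0.37 (SE, adjusted p = 0.00125).

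Cpox and Cldnd1 were already well above background with IL2 and were higher still in the joint condition. Cpox, an enzyme of heme synthesis, had 11.32, 11.49, 11.04 and 11.66 in the joint condition, against 9.51, 9.53 and 9.12 with TGFb, 9.21, 9.23 and 8.88 with IL6, and 9.58, 9.20 and 9.64 with IL2, an interaction of 2.47 ± 0.39 (SE, adjusted p = 0.00119). Cldnd1, a membrane protein related to claudins, had joint signals between 11.71 and 12.32 and no other channel above 10.04, with an interaction of 2.41 ± 0.46 (SE, adjusted p = 0.00741). Plac8, a small cysteine-rich protein, was lowest with TGFb alone and highest with both. It had 12.65, 12.40, 12.42 and 12.25 in the joint condition, against 9.34, 9.29 and 9.07 with TGFb, 10.95, 10.68 and 10.58 with IL6, and 10.29, 10.20 and 10.28 with IL2. Its interaction was 2.92 ± 0.67 (SE, adjusted p = 0.0335), and the call was lost, with an adjusted p of 0.0655 to 0.117, in each of the 11 fits that left out an array other than IL6 arrays 1 or 2. The fit on T-effector channels alone kept the call of Plac8. The 5 genes well above background in every joint channel and in no other T-effector channel, singled out after their values were seen, were Cyp1b1, Nat8l, Daw1, C030027H14Rik and A130038J17Rik.

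**Figure D2:**
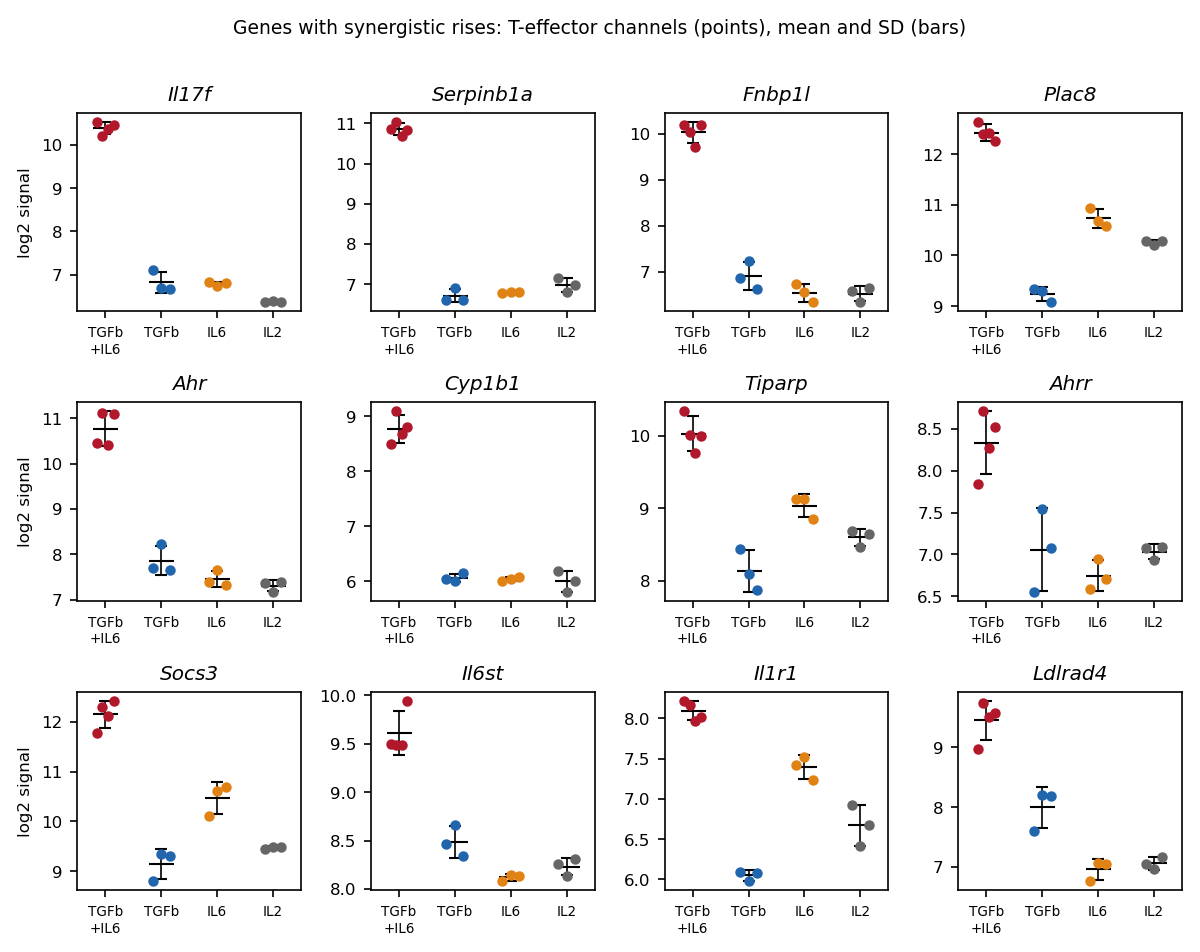
T-effector log2 signal (y axis) of 12 synergistic rises by condition (x axis), with 1 point per array, the mean as a horizontal bar and the SD as an error bar. The 4 joint points of each gene lie above all points of the other conditions, by more than 3 log2 in Il17f and by under 1 log2 in Ahrr.

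Ahr and 3 genes known as its targets had synergistic rises. Of 11 tested genes of the Ahr pathway list, 4 passed the threshold, all above 0, and 0 below 0, where 0.697% of all genes tested passed above 0. These were Ahr itself, its repressor Ahrr, the dioxin-inducible monooxygenase Cyp1b1, and the ADP-ribosyltransferase Tiparp, which limits Ahr activity. Cyp1a1 and Nqo1, also on the list, were tested and did not pass. The list's median interaction was 0.95, against -0.03 over all genes tested. This list and those below were written with earlier results of these data known. Their counts beside the share of all genes are therefore no test of enrichment. Ahr had log2 signals of 10.46, 11.11, 10.42 and 11.11 in the joint condition, against 7.71, 8.22 and 7.64 with TGFb, 7.38, 7.66 and 7.31 with IL6, and 7.38, 7.17 and 7.38 with IL2. The joint channels were at least 2 log2 above any other, and the IL6 channels overlapped those of IL2. The interaction of Ahr was 2.81 ± 0.28 (SE, adjusted p = 3.54e-06), a 7.02-fold excess, and it was 2.52 within slides.

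The promoters of the 3 target genes are shown because their interactions passed with that of Ahr, with the core of the known Ahr recognition element, GCGTG on either strand, in capitals (250 bases before to 50 after the gene start, 5′ to 3′ along the gene, RefSeq, build GRCm38.p6). The windows were chr13:74292282-74292581, minus strand for Ahrr, chr17:79715012-79715311, minus strand for Cyp1b1 and chr3:65528197-65528496, plus strand for Tiparp.
Ahrr promoter: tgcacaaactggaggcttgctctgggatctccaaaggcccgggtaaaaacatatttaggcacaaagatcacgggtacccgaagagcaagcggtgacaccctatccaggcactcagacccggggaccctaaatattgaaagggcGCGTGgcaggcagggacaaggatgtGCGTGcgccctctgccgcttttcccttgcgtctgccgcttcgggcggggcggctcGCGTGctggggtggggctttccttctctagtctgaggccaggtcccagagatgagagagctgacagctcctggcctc
Cyp1b1 promoter: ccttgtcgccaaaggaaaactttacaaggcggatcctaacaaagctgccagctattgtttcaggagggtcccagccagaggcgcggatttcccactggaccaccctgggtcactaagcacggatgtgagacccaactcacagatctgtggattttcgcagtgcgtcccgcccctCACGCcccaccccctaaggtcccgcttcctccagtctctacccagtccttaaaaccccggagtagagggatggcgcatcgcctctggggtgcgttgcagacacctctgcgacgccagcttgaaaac
Tiparp promoter: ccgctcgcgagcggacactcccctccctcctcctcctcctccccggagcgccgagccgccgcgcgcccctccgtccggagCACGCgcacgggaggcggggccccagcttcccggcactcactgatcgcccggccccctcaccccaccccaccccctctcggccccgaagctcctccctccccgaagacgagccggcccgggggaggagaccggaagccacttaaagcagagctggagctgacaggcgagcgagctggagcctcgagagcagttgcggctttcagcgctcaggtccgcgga
Ahrr held 3 such matches, Cyp1b1 held 1 and Tiparp held 1, and the same letters occurred in 32.4% of all 32851 promoter windows. Counted by gene, they occurred in 35.2% of all genes with a window. The share was 54.4% of the 90 synergistic rises and 58.3% of the 36 synergistic falls with a window, so a match is not particular to these 3 genes. A match describes the letters and is no evidence of binding.

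Cyp1b1 was well above background only in the joint condition. Its log2 signals there were 8.50, 9.09, 8.68 and 8.80, against 6.04, 6.0 and 6.14 with TGFb, 6.01, 6.04 and 6.08 with IL6, and 6.18, 5.81 and 6.0 with IL2, none of these 9 well above background. The joint level was at least 6.45-fold that with TGFb, at least 6.60-fold that with IL6 and at least 6.81-fold that with IL2. The interaction was 2.68 ± 0.18 (SE, adjusted p = 1.67e-08) and 6.37 with Agilent's processed signals, while a second Cyp1b1 probe, well above background in 3 T-effector channels, gave 0.13. Ahrr had 7.84, 8.71, 8.27 and 8.52 in the joint condition, against 6.55, 7.54 and 7.08 with TGFb, 6.59, 6.94 and 6.70 with IL6, and 7.08, 6.93 and 7.09 with IL2. Its interaction was 1.52 ± 0.30 (SE, adjusted p = 0.0107), and the adjusted p was 0.0503 to 0.0671 without IL2 array 1, IL6 array 1 or IL6 array 3. Tiparp was below the IL2 channels with TGFb and above them with IL6, with 10.34, 10.02, 9.76 and 10.00 in the joint condition, against 8.44, 8.09 and 7.87 with TGFb, 9.13, 9.13 and 8.86 with IL6, and 8.68, 8.46 and 8.65 with IL2. Its interaction was 1.48 ± 0.29 (SE, adjusted p = 0.00834, and 0.0576 without IL6 array 3).

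Of 25 tested genes of the IL6 and STAT3 response list, 4 passed above 0 (Lgals3, Socs3, Il6st and Timp1) and 0 below, with a list median of 0.21. Over all genes tested, 0.697% passed above 0. Socs3 had 11.77, 12.29, 12.11 and 12.41 in the joint condition, against 8.80, 9.34 and 9.30 with TGFb, 10.11, 10.61 and 10.70 with IL6, and 9.44, 9.49 and 9.5 with IL2. The IL6 channels lay above all IL2 channels, the TGFb channels lay below them, and the joint channels were above every other channel. The interaction was 1.94 ± 0.35 (SE, adjusted p = 0.00438), or 3.84-fold, and the IL6 difference was 2.98 log2 in the presence of TGFb and 1.04 in its absence. The Socs3 promoter is shown for the palindrome that Stat proteins bind, TTCNNNGAA, in capitals (chr11:117969317-117969616, minus strand, build GRCm38.p6), a motif found in 8.30% of the 32851 windows and once here.
Socs3 promoter: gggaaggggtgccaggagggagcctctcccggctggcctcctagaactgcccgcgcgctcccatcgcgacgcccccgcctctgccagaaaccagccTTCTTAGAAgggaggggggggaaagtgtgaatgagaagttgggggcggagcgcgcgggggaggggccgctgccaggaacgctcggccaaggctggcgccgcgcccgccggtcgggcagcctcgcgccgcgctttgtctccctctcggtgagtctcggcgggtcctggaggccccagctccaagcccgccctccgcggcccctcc

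Il6st, which encodes gp130, had 9.5, 9.49, 9.49 and 9.95 in the joint condition, against 8.47, 8.66 and 8.34 with TGFb, 8.08, 8.14 and 8.14 with IL6, and 8.25, 8.13 and 8.31 with IL2. The joint channels did not overlap the others, and the interaction was 1.21 ± 0.17 (SE, adjusted p = 0.000362). Timp1, an inhibitor of matrix metalloproteinases, was above the IL2 channels with each cytokine and highest with both, with 10.69, 10.58, 10.83 and 10.56 in the joint condition, against 8.41, 8.32 and 8.45 with TGFb, 8.25, 8.30 and 8.60 with IL6, and 7.28, 7.77 and 7.26 with IL2. Its interaction was 1.28 ± 0.21 (SE, adjusted p = 0.00164). Lgals3, the lectin galectin-3, had joint signals of 11.34, 12.48, 12.04 and 12.26 that overlapped the IL2 signals of 11.42, 10.97 and 11.06, and its interaction of 2.09 ± 0.47 (SE, adjusted p = 0.0309) came with TGFb channels below the IL2 channels. The Lgals3 call was lost, with an adjusted p of 0.0535 to 0.186, without IL2 array 1, TGFb arrays 1 or 3, joint arrays 2, 3 or 4, or IL6 arrays 1 or 3. Stat3 did not pass, with an interaction of 0.75 (adjusted p = 0.135), although it passed in the fit on T-effector channels alone with 0.71 (adjusted p = 0.0258). A second Stat3 probe, well above background in all 13 T-effector channels, gave 0.13 (adjusted p = 0.949). Il6ra, the ligand-binding receptor chain, did not pass either, with -0.29 (adjusted p = 0.967), and a second Il6ra probe gave 0.27.

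Beyond Il17f and Ahr, 2 of the 24 tested Th17 list genes passed above 0, Il1r1 and Tgfb3, and 0 passed below, with a list median of 0.16. Over all genes tested, 0.697% passed above 0. Il1r1, the receptor of interleukin 1, had 8.22, 8.17, 7.97 and 8.02 in the joint condition, against 6.1, 5.98 and 6.08 with TGFb, 7.42, 7.53 and 7.23 with IL6, and 6.92, 6.42 and 6.67 with IL2. With TGFb alone Il1r1 was not well above background in any array, so that the joint level was at least 4.13-fold that with TGFb, and the interaction was 1.41 ± 0.19 (SE, adjusted p = 0.000285). Tgfb3, a TGFb isoform, had 8.05, 7.84, 7.83 and 8.0 in the joint condition and nothing above 7.0 elsewhere, with an interaction of 1.18 ± 0.20 (SE, adjusted p = 0.0024). Il17ra, a receptor chain for Il17a and Il17f, had an interaction of 1.32 ± 0.30 (SE, adjusted p = 0.0282), which lost the threshold in 9 of the 13 fits with an array left out (adjusted p of 0.0502 to 0.129), those without TGFb array 2, joint arrays 1 or 3, or IL6 array 2 being the exceptions. A second Il17ra probe, well above background in all 13 T-effector channels, gave 0.98 (adjusted p = 0.116).

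Il17a and Il21, further Th17 cytokines, did not pass. Il17a had log2 signals of 8.54, 7.89, 8.01 and 7.55 in the joint condition, against 7.06, 6.66 and 6.81 with TGFb, 8.31, 7.69 and 7.70 with IL6, and 6.90, 6.70 and 6.81 with IL2. The joint channels overlapped those of IL6 alone, and the interaction was 0.17 ± 0.24 (SE, adjusted p = 0.967). Il21, a cytokine made by Th17 and follicular helper cells, had 12.83, 12.16, 12.35 and 12.31 in the joint condition, against 8.45, 7.95 and 7.95 with TGFb, 12.60, 11.96 and 11.87 with IL6, and 8.11, 7.93 and 8.15 with IL2. The joint and IL6 channels overlapped, and the interaction was 0.32 ± 0.53 (SE, adjusted p = 0.967). Neither Rora (0.50, adjusted p = 0.667), Ccr6 (0.07, adjusted p = 0.984) nor Il23r (0.16, adjusted p = 0.967) passed, and Il23r was well above background in only 4 of the 13 channels. Il10 was just short of the threshold, with an interaction of 1.73 ± 0.43 (SE, adjusted p = 0.0613), and it passed in 7 of 29 alternatives, with an adjusted p of 0.0179 to 0.0484.

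Foxp3, Il2ra and Ctla4, which mark Treg cells, did not pass. Of 23 tested Treg-associated genes 0 passed above 0 and 1 below, with a list median of -0.05, and of 27 tested TGFb response genes 1 passed on each side, with a list median of 0.02, where 0.983% of all genes tested passed. Foxp3 had 6.35, 7.20, 6.81 and 7.07 in the joint condition, against 6.37, 7.19 and 6.72 with TGFb, 6.42, 6.24 and 6.17 with IL6, and 6.07, 6.23 and 6.19 with IL2. The joint and TGFb channels covered the same range, and the interaction was -0.12 ± 0.32 (SE, adjusted p = 0.976). Il2ra gave -0.05 ± 0.31 (SE, adjusted p = 0.988), and Ctla4 gave 0.04 ± 0.23 (SE, adjusted p = 0.988) even though its joint channels were above all others. Ldlrad4, an inhibitor of TGFb signalling, had 8.98, 9.75, 9.51 and 9.57 in the joint condition, against 7.60, 8.20 and 8.18 with TGFb, 6.76, 7.07 and 7.05 with IL6, and 7.04, 6.95 and 7.17 with IL2. The IL6 difference of Ldlrad4 was -0.03 log2 without TGFb and 1.42 with it, and the interaction was 1.45 ± 0.25 (SE, adjusted p = 0.0031). A second Ldlrad4 probe, well above background in 4 T-effector channels, gave 0.68 (adjusted p = 0.204). Smad7, the inhibitory Smad, had 9.22, 9.53, 9.01 and 9.82 in the joint condition, against 8.14, 8.22 and 7.88 with TGFb, 7.68, 7.07 and 7.01 with IL6, and 6.90, 6.88 and 6.98 with IL2, and its interaction of 1.07 ± 0.29 (SE) did not pass (adjusted p = 0.104, and 0.0385 without IL6 array 1).

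Genes of naive and memory T cells contained 5 calls above 0 and 0 below among 17 tested, with a list median of 0.74, where 0.697% of all genes tested passed above 0. Ccr7, a lymph node homing receptor, had an interaction of 1.07 ± 0.22 (SE, adjusted p = 0.016, and 0.0644 to 0.0899 without IL2 array 1, TGFb arrays 1 or 3, or joint array 2) with a joint level close to that of IL2. Igfbp4, a binding protein of insulin-like growth factors, had an interaction of 1.43 ± 0.31 (SE, adjusted p = 0.0227). Il7r, the receptor of interleukin 7, had 1.00 ± 0.24 (SE, adjusted p = 0.0426), although a second Il7r probe, well above background in all 13 channels, gave 0.38 (adjusted p = 0.882). Satb1, a chromatin organiser, had 1.03 ± 0.25 (SE, adjusted p = 0.0452), and 0.79 (adjusted p = 0.797) by a second probe. The last 3 calls were lost when single arrays were left out. Igfbp4 was lost in 7 of the 13 fits (all but those without IL2 array 3, TGFb array 2, joint arrays 1 or 3, or IL6 arrays 2 or 3), with an adjusted p of 0.0514 to 0.108. Il7r was lost in 11 (all but those without joint array 2 or IL6 array 1), with 0.0551 to 0.211, and Satb1 in 10 (all but those without TGFb array 1, joint array 2 or IL6 array 1), with 0.0679 to 0.186.

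Further lists are given beside the 0.697% of all genes called above 0. Of 28 tested cytokine receptors of T cells 4 passed above 0 (Il17ra, Il6st, Il1r1 and Il7r) and 0 below, with a median of 0.35. Of 20 tested genes of chemokine receptors and adhesion 3 passed above 0, Ccr7 and Cxcr5 among them, and of 15 tested genes of SOCS and cytokine feedback Socs3 alone did. Among 23 tested interferon response genes, 2 passed above 0, the chemokine Cxcl10 with 2.19 ± 0.43 (SE, adjusted p = 0.00961, and 0.062 without IL6 array 3) and the transcription factor Stat2 with 0.98 ± 0.19 (SE, adjusted p = 0.00923, and 0.0564 to 0.0701 without IL2 array 1 or TGFb arrays 1 or 3). Cxcl10 had 7.69, 8.66, 8.08 and 8.58 in the joint condition, against 6.36, 6.17 and 6.73 with TGFb, 7.15, 7.64 and 7.12 with IL6, and 7.88, 7.47 and 7.71 with IL2, so the joint and IL2 channels overlapped and the TGFb channels were lowest. Jun, an AP-1 subunit, was the 1 call among 16 AP-1, Batf and Irf4 genes and among 20 immediate early and TCR signal genes, with an interaction of 0.82 ± 0.15 (SE, adjusted p = 0.00589), and neither Batf (0.23, adjusted p = 0.969) nor Irf4 (0.06, adjusted p = 0.987, with 1 joint array missing) passed. Counts of 0 in both directions came from limma for 21 Th1 and cytotoxic genes (median -0.31), 15 Th2 genes (median -0.34), 18 IL2 and STAT5 response genes, 30 cell cycle genes, 26 glycolysis and hypoxia genes and 20 cholesterol synthesis genes, where 6, 5, 4, 1, 3 and 2 genes in that order had an unadjusted p under 0.05. Ifng, the Th1 cytokine, had 13.42, 13.28, 12.90 and 13.19 in the joint condition, against 14.96, 14.86 and 14.74 with TGFb, 13.39, 13.62 and 13.48 with IL6, and 13.50, 13.37 and 13.45 with IL2. Its TGFb channels lay above all others, but the interaction of -1.57 ± 0.65 (SE) did not pass (adjusted p = 0.497). The SD of Ifng within a T-effector condition was 0.07 to 0.22, whereas the SE also holds the spread of the Treg channels. Ifng did pass in the fit on T-effector channels alone, with -1.63 (adjusted p = 0.000544), and without IL6 array 2, with -1.61 (adjusted p = 0.000767). Gata3, the Th2 factor, did not pass, with -1.09 ± 0.65 (SE, adjusted p = 0.845), nor did Bcl6, the follicular helper factor, with 1.34 ± 0.72 (SE, adjusted p = 0.756). Further genes chosen as landmarks for this comparison that did not pass were Tbx21 (-0.40), Prdm1 (-0.56), Gzmb (0.08), Maf (-0.10) and Ikzf3 (-0.40). Other Maf probes gave 0.31, 0.63 and 0.57, and other Ikzf3 probes gave 0.24 and -0.20, none past the threshold.

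**Figure D3:**
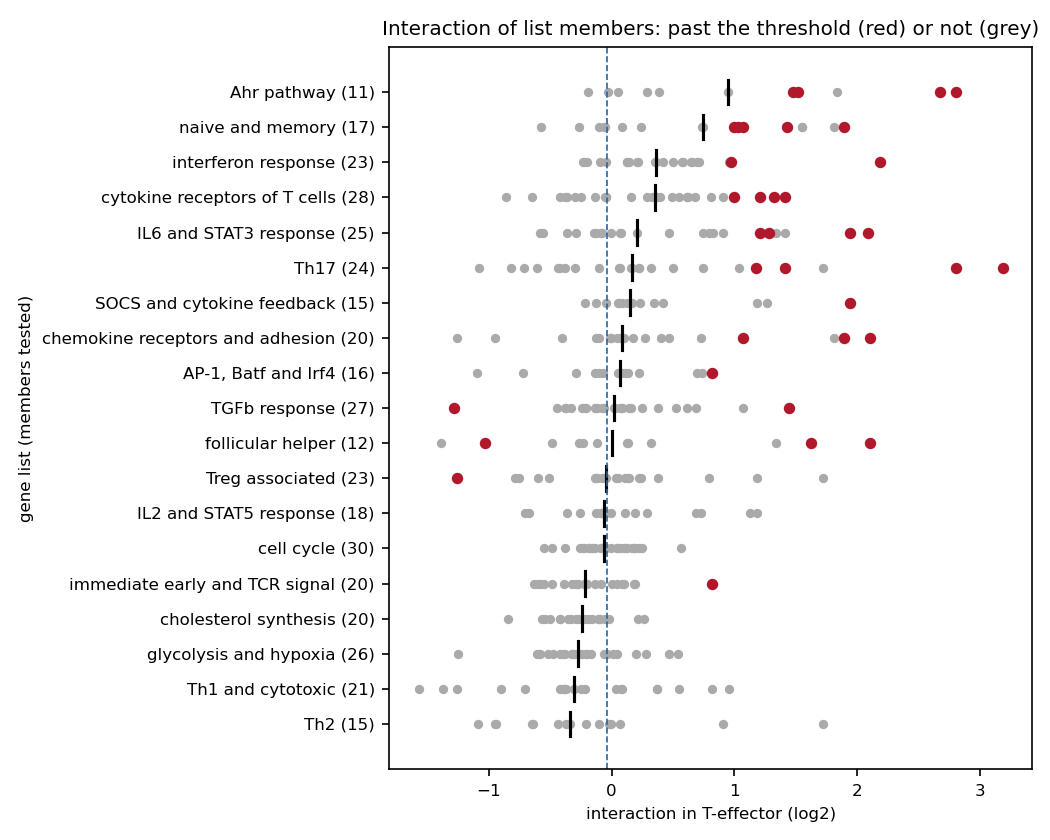
Interaction in T-effector cells (x axis, log2) of the members of 19 gene lists (y axis, with the number of members tested), where red points passed the threshold, grey points did not, black bars are list medians and the dashed line is the median of all genes tested. The Ahr pathway has the highest median, 0.95, and the red points lie mostly right of 0.

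Synergistic falls differed in their single effects. In 18 of the 47 synergistic falls a single effect was above 0.5 log2 while the joint mean was the lowest of the condition means, whereas in 22 of them both single effects were within 0.5 log2 of 0. Fmn2, a formin that nucleates actin filaments, had 9.11, 7.92, 8.99 and 7.81 in the joint condition, against 10.49, 9.21 and 10.05 with TGFb, 11.87, 11.69 and 12.11 with IL6, and 9.99, 10.14 and 9.60 with IL2. The IL6 channels were above every other channel and the joint channels were below all others, an interaction of -3.29 ± 0.69 (SE, adjusted p = 0.0166, and 0.0637 to 0.095 without IL2 arrays 1 or 3, TGFb arrays 1 or 3, or joint array 2). Joint arrays 2 and 4 of Fmn2, both on slide B, were the lower pair. Akr1c18, a progesterone-metabolising aldo-keto reductase, had 11.85, 11.68, 11.79 and 11.57 in the joint condition, against 12.85, 12.98 and 12.87 with TGFb, 14.80, 14.50 and 14.70 with IL6, and 12.98, 13.29 and 13.16 with IL2. Its interaction was -2.66 ± 0.47 (SE, adjusted p = 0.00372), and the IL6 difference was 1.5 log2 without TGFb and -1.16 with it. A second aldo-keto reductase, Akr1c13, had -1.53 ± 0.33 (SE, adjusted p = 0.0203, and 0.0568 to 0.105 without IL2 array 2, TGFb arrays 1 or 3, joint array 2 or IL6 array 1).

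Nrn1, a membrane-anchored neurotrophic protein, was low in the joint condition alone. It had 6.67, 6.85, 6.61 and 6.32 in the joint condition, against 9.80, 9.51 and 9.38 with TGFb, 9.74, 9.58 and 9.45 with IL6, and 10.06, 9.84 and 10.06 with IL2. The joint channels were more than 2 log2 below every other channel, and the interaction was -2.59 ± 0.53 (SE, adjusted p = 0.0132, and 0.0699 without TGFb array 1). Tacc2, a centrosomal protein, had 8.40, 8.40, 8.10 and 8.54 in the joint condition, against 10.78, 10.53 and 10.44 with TGFb, 10.17, 10.35 and 10.14 with IL6, and 10.55, 10.30 and 10.51 with IL2. Its interaction was -1.96 ± 0.19 (SE, adjusted p = 2.99e-06), although 2 other Tacc2 probes, well above background in 10 and 4 T-effector channels, gave -0.12 and -0.11. Tnfrsf9, the costimulatory receptor 4-1BB and the call below 0 in the Treg-associated list, had 9.69, 9.45, 9.07 and 9.07 in the joint condition, against 11.40, 11.21 and 10.82 with TGFb, 10.96, 10.42 and 10.11 with IL6, and 11.06, 10.65 and 10.87 with IL2, an interaction of -1.26 ± 0.19 (SE, adjusted p = 0.000797). A dim second Tnfrsf9 probe gave 0.18. Cd200, a ligand that restrains myeloid cells, had an interaction of -1.03 ± 0.19 (SE, adjusted p = 0.00415), with joint channels between 9.79 and 10.03 and no other channel below 10.98.

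Fhl2, Phlda1, Rgs2, Rgs16, Grk5 and St3gal5 had a positive single effect of at least 1 cytokine and their lowest mean with the pair. Fhl2, a LIM-domain cofactor, had 7.97, 8.29, 7.99 and 8.28 in the joint condition, against 9.55, 9.92 and 9.96 with TGFb, 8.67, 8.71 and 8.90 with IL6, and 9.08, 9.07 and 9.0 with IL2, an interaction of -1.5 ± 0.21 (SE, adjusted p = 0.000362). Phlda1, a pleckstrin-homology protein induced by T cell receptor signals, had 7.79, 8.24, 7.66 and 8.31 in the joint condition, against 9.54, 10.01 and 9.72 with TGFb, 8.01, 8.15 and 7.90 with IL6, and 8.38, 8.38 and 8.39 with IL2. The TGFb channels of Phlda1 lay above all others, and the joint channels overlapped those of IL6 alone, an interaction of -1.42 ± 0.23 (SE, adjusted p = 0.00171). The joint minus IL6 difference of Phlda1 was only -0.03 log2, and its class rests on that order. Rgs16, a regulator of G protein signalling, was the call below 0 in the TGFb response list, with -1.29 ± 0.24 (SE, adjusted p = 0.00624) and joint channels of 10.52, 10.47, 10.41 and 10.08, against 11.25, 11.42 and 11.38 with TGFb. Grk5, a kinase of G protein-coupled receptors, had -1.36 ± 0.20 (SE, adjusted p = 0.000516), and St3gal5, which makes the ganglioside GM3, had -1.31 ± 0.20 (SE, adjusted p = 0.000987), and for both the IL6 channels lay above all others. A second Grk5 probe, well above background in 12 T-effector channels, gave -0.91 (adjusted p = 0.205).

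In all 10 antagonised rises TGFb had the larger single effect, between 0.59 and 1.79 log2, whereas the joint effect lay between -0.07 and 0.71. Avpr1a, a vasopressin receptor, had 6.04, 6.0, 6.14 and 6.12 in the joint condition, against 7.32, 8.09 and 7.88 with TGFb, 5.73, 5.87 and 5.90 with IL6, and 6.04, 5.99 and 5.98 with IL2. The TGFb channels alone were well above background, so the size of the interaction depends on the background treatment. It was -1.56 ± 0.20 (SE, adjusted p = 9.65e-05), -0.88 with every spot in the background model and -5.79 with Agilent's processed signals. Wls, which carries Wnt proteins to the cell surface, had 6.34, 6.57, 6.21 and 6.98 in the joint condition, against 7.13, 7.68 and 7.30 with TGFb, 7.01, 6.86 and 6.99 with IL6, and 6.38, 6.44 and 6.51 with IL2, an interaction of -1.38 ± 0.25 (SE, adjusted p = 0.00477). A second Wls probe, not well above background in any T-effector channel, gave -0.38. Tead1, the DNA-binding partner of Yap, had -1.08 ± 0.22 (SE, adjusted p = 0.0134), and Nupr1, a stress-induced nuclear protein, had -1.03 ± 0.21 (SE, adjusted p = 0.0156) with 7.34, 7.39, 7.06 and 7.49 in the joint condition, against 8.50, 8.22 and 7.92 with TGFb. The others were Fbln2, Mstn, Rxylt1, Krt87, Denn2b and Gap43, with interactions of -0.82 to -0.62. With each array left out, Fbln2, Krt87 and Gap43 passed in only 2 of the 13 fits, Mstn and Rxylt1 in 3, Nupr1 in 9 and Tead1 in 11. In 3 of the 10 antagonised rises every joint channel was well above background.

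**Figure D4:**
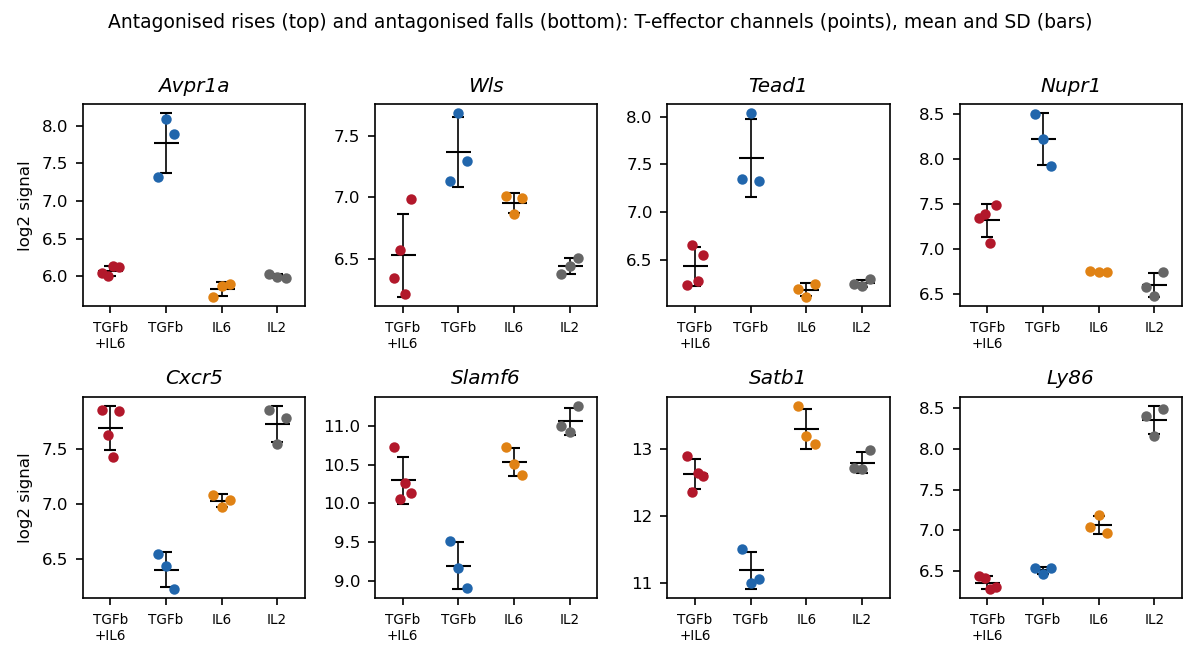
T-effector log2 signal (y axis) of 4 antagonised rises (top) and 4 antagonised falls (bottom) by condition (x axis), with 1 point per array, the mean as a horizontal bar and the SD as an error bar. In the top row the TGFb points are highest, and in Cxcr5 the joint points overlap those of IL2 while the TGFb points are lowest.

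Antagonised falls split by where the joint level came to rest. In 4 of the 10 the joint mean lay more than 0.5 log2 above the TGFb mean, and in the other 6 it was within 0.5 log2 of it. In 2 of the 10, Ly86 among them, all joint channels lay below all other T-effector channels, so the pair gave the lowest level. Cxcr5, the follicular homing receptor, had 7.85, 7.62, 7.43 and 7.84 in the joint condition, against 6.54, 6.44 and 6.22 with TGFb, 7.08, 6.97 and 7.03 with IL6, and 7.85, 7.54 and 7.78 with IL2. The channels of each cytokine alone lay below those of IL2 and the joint channels overlapped them, an interaction of 2.11 ± 0.26 (SE, adjusted p = 6.90e-05), or 4.31-fold. Slamf6, a self-ligand receptor of lymphocytes, had 10.73, 10.05, 10.26 and 10.14 in the joint condition, against 9.51, 9.18 and 8.91 with TGFb, 10.72, 10.51 and 10.36 with IL6, and 11.00, 10.92 and 11.26 with IL2, an interaction of 1.63 ± 0.31 (SE, adjusted p = 0.00625). Cxcr5 and Slamf6 were the calls above 0 among 12 follicular helper genes, where Cd200 was the 1 below. Over all genes tested, 0.697% passed above 0 and 0.286% below. Ly86, a partner of a B cell Toll-like receptor, had a joint mean within 0.5 log2 of the TGFb mean, with 6.45, 6.41, 6.28 and 6.3 in the joint condition, against 6.54, 6.46 and 6.54 with TGFb, 7.04, 7.19 and 6.97 with IL6, and 8.41, 8.15 and 8.49 with IL2, an interaction of 1.21 ± 0.18 (SE, adjusted p = 0.000797). Ly86 was well above background in 2 of the 4 joint channels, so its joint level is an upper bound in the others. The additive sum would put its joint level below every Ly86 signal measured here. An antagonism of Ly86 therefore cannot be told apart from the lower limit of the signal.

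Several antagonised falls, namely Ly86, Iglv1, Tnfrsf13c and Fcer2a, are known as genes of B cells, and Cxcr5 is also expressed by them. Tnfrsf13c passed in only 5 of the 13 fits with an array left out, Fcer2a in 9 and Iglv1 in 11. The summed signal of the 11 tested B cell markers was 1757 to 2968 in the joint T-effector channels, 3166 to 4060 with TGFb, 2835 to 3240 with IL6, and 6812 to 7324 with IL2, so the marker signal was lower in all 3 cytokine conditions than with IL2. Ms4a1 was well above background in all 13 T-effector channels, 0 of the 11 markers passed the threshold with limma, their median interaction was 0.56, and their part in these falls was not tested. In whole-population RNA, fewer cells of a type and less RNA per cell cannot be told apart. In 5 of the 10 antagonised falls the gene was not well above background in every joint channel, so that its level there has only an upper bound in the dim channels. The part of this limit in their positive interactions, and in their split by joint level, was not tested. The CD8 T and NK marker Klrd1 was a synergistic rise, with 10.15, 10.32, 10.29 and 10.45 in the joint condition and no other channel above 8.65, and was the 1 call among 10 tested markers of that list, whose summed signal was 3791 to 4819 in the joint condition and 4862 to 5285 with IL2.

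In the Treg channels the same contrast shared the arrays and the normalization, so its values are given side by side with no measure of agreement. The Treg interaction was called for 183 genes, and 93 genes were called in both cell types. Of the 129 synergistic rises, 67 were called in Treg, and the Treg interaction of Il17f was 2.66 ± 0.18 (SE), that of Serpinb1a 3.98 ± 0.26 (SE) and that of Ahr 1.74 ± 0.28 (SE). A test of the T-effector minus Treg difference called 25 of 19931 genes (0.125%), of which 14 were above 0 and 11 below, and 839 had an unadjusted p under 0.05. The differences for Il17f (0.53, adjusted p = 0.72), Ahr (1.07, adjusted p = 0.27) and Socs3 (0.78, adjusted p = 1.00) did not pass, which does not show that they were equal.

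Of the 25 genes, 9 were also called in T-effector, all shown in the plot of both interactions. Tspan2, a tetraspanin, had a T-effector interaction of 1.45 ± 0.26 (SE) and a Treg interaction of -0.29 ± 0.26 (SE), a difference of 1.74 (adjusted p = 0.00842). It had 9.0, 8.81, 8.48 and 8.71 in the joint T-effector channels, against 8.32, 8.38 and 7.84 with TGFb, 7.09, 7.10 and 6.72 with IL6, and 7.87, 7.47 and 7.72 with IL2. The IL6 channels of Tspan2 lay below all others and the joint channels above all others. Endod1, an endonuclease-domain protein, had 2.03 ± 0.24 (SE) in T-effector and 0.50 ± 0.24 (SE) in Treg, a difference of 1.53 (adjusted p = 0.0104). Rgs2, a regulator of G protein signalling, had -1.33 ± 0.19 (SE) in T-effector and -0.05 ± 0.19 (SE) in Treg, a difference of -1.28 (adjusted p = 0.00827). Rgs2 had 12.07, 12.12, 11.59 and 12.15 in the joint T-effector channels, against 13.07, 13.15 and 12.83 with TGFb, 12.90, 12.86 and 12.38 with IL6, and 12.49, 12.16 and 12.24 with IL2, and a second, dimmer Rgs2 probe gave -0.05. Timp1 had the larger interaction in Treg, with 1.28 in T-effector and 2.49 in Treg, a difference of -1.21 (adjusted p = 0.0303). The count of differing genes was the least stable result, at 0 without slide B or slide D and 170 without slide E.

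**Figure D5:**
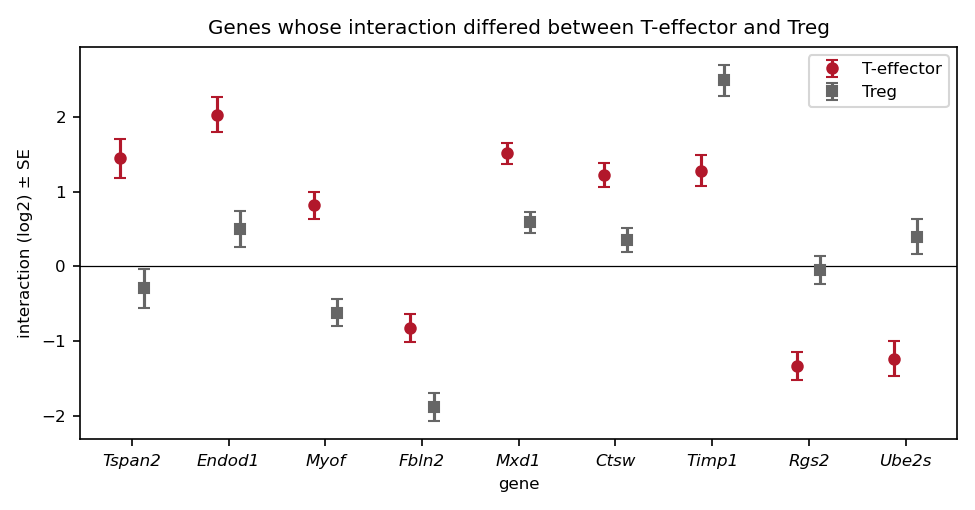
Interaction (y axis, log2) in T-effector (circles) and Treg (squares) for the 9 genes (x axis) called in T-effector whose interaction differed between the cell types, with bars for the SE. Tspan2 and Myof are above 0 in T-effector and below 0 in Treg, and Timp1 is higher in Treg.

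Taking only differences within slides, from the 3 pairs of joint and TGFb arrays and the 1 slide that held both IL6 and IL2, all 196 genes kept the sign of their interaction, and for all 196 it was the same in each of the 3 pairs, as it was for 50.7% of all genes with a value. The 196 were called on these arrays, so their share is no separate support. IL6 and IL2 shared slide A alone, so the within-slide value of each gene rests on a single IL6 minus IL2 difference. With slide as a block in the fit, Il17f kept an interaction of 3.28 (adjusted p = 1.42e-07) and Ahr one of 2.63 (adjusted p = 1.85e-06). The same fit put Socs3 at 1.62 (adjusted p = 0.0668), Cxcl10 at 2.19 (adjusted p = 0.0703), Ccr7 at 0.90 (adjusted p = 0.0865) and Akr1c13 at -1.20 (adjusted p = 0.259), none past the threshold, and Lgals3, Igfbp4, Satb1, Il17ra and Stat2 also lost their calls, with an adjusted p between 0.0581 and 0.202. With the replicate block for the paired arrays the calls of Plac8, Akr1c13, Satb1 and Il7r were lost, with an adjusted p between 0.0601 and 0.079. Another probe was measured for 81 of the 196 genes, and for 70 of these every other probe had the same sign, while for 15 another probe also passed.

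Calls of several named genes depended on how the signals were treated. Of 46 called genes chosen by the rule for named genes, 10 passed in all 29 alternatives, namely Il17f, Serpinb1a, Fnbp1l, Prss12, Lgmn, Ahr, Cyp1b1, Tacc2, Avpr1a and Cxcr5. With every spot in the background model, Wls (-0.85), Tgfb3 (0.71), Ldlrad4 (1.03), Ahrr (1.04), Igfbp4 (1.24) and Jun (0.54) lost their calls, with an adjusted p of 0.0946 to 0.58. With median centring in place of loess, 11 calls were lost, those of Rgs2, Akr1c13, Tnfrsf9, Cd200, Tiparp, Slamf6, Ccr7, Satb1, Il7r, Jun and Stat2, with an adjusted p of 0.0519 to 0.461. With Agilent's processed signals Gpr15 (3.03, adjusted p = 0.2) and Plac8 (3.14, adjusted p = 0.076) were lost. The same signals gave larger interactions for genes with dim channels, 4.27 for Il1r1, 4.23 for Cxcr5, 4.15 for Serpinb5, 3.77 for Cxcl10, 2.38 for Tgfb3 and -2.99 for Wls. With the arrays of a slide averaged, 13 calls were lost, those of Socs3, Plac8, Cldnd1, Fmn2, Akr1c13, Lgals3, Ahrr, Tiparp, Igfbp4, Ccr7, Il17ra, Cxcl10 and Stat2, with an adjusted p of 0.0517 to 0.216. The fit on T-effector channels alone lost Lgals3, Ahrr, Ccr7, Satb1 and Il7r, with an adjusted p of 0.0559 to 0.139. Without the dye term Plac8, Satb1 and Il7r were lost, without background subtraction Il7r, and with the spatial trend removed Plac8. In fits with fewer arrays, 19 of the 46 calls were lost without slide B, 29 without slide E and 29 without slide D. Tnfrsf9, Ldlrad4, Tgfb3, Wls, Jun and Slamf6 were lost both without slide E and without slide D, Gpr15 without slide D, and Socs3, Cldnd1 and Cd200 in each of these 3 fits.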

How the data were processed

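RNA of T-effector and Treg cells was hybridised together on 13 two-colour arrays. The deposited intensity values, a mean foreground and a median local background for Cy3 and Cy5, were written by Agilent Feature Extraction 9.5.1.1 per the file headers. The array design is annotated to mouse build mm7, and the authors' value table was not used. The dye of each cell type came from the labels. From these intensities, limma 3.58.1 in R 4.3.3 applied normexp (offset 50, fitted without spots flagged for local background), loess within arrays and quantile normalization of mean signals between arrays. A probe was kept if at least 3 of its 26 channels were well above background (28969 probes), and the brightest probe of each gene was tested (19931 genes, 135 with a missing array). A separate-channel fit held 8 means and a dye term (intraspot correlation 0.45, 17 residual degrees of freedom). Its moderated test was adjusted by Benjamini-Hochberg over all genes, with a threshold of 0.05. With 3 or 4 arrays a condition, array number sets the precision.

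Named genes were 28 landmarks, the 12 highest and the 12 lowest interactions, up to 4 called members of each of 19 gene lists, and others said to be singled out. The landmarks, lists and members were chosen with earlier results of these data known, and values of a few of these genes are not reported here. Arrays 1, 2 and 3 of TGFb with IL6 and of TGFb, which share slide and dye, had deviations that correlated at 0.85, 0.78 and 0.28 in T-effector. Their numbers were therefore taken as pairs, and the replicate block is an alternative. A shared replicate and a shared slide cannot be told apart in these correlations. IL6 and IL2 arrays of the same number, which share no slide, correlated at -0.44, -0.68 and -0.23. Other alternatives were the background model, the normalization, the filter, the slide, and each array or slide left out.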

Additional observations from a re-analysis of the deposited data

Results flagged for a closer look

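Of 67 genes chosen by the rule for named genes with all 4 joint T-effector values, 6 had 1 array apart from the other 3 by Dixon's test, where chance alone would mark about 1 in 20. Array 1 was the low one for Ikzf3 (log2 signal 10.36), Igfbp4 (9.82) and Ccr7 (11.40), and the high one for Il7r (10.86). Array 3 was low for Rgs2 (11.59), and array 4 was high for Il6st (9.95).

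The interaction differed between T-effector and Treg, by the test of the difference itself, for 9 genes called in T-effector. The T-effector minus Treg difference in log2 was 1.74 for Tspan2, 1.53 for Endod1, 1.44 for Myof, 1.06 for Fbln2, 0.92 for Mxd1 and 0.87 for Ctsw. It was -1.63 for Ube2s, -1.28 for Rgs2 and -1.21 for Timp1.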

How the results depend on the processing

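All 196 called genes that could be tested kept the sign of the interaction in each alternative, except 1 of 193 with Agilent's processed signals. The count of genes past the threshold was less stable, and the cause was not tested. In T-effector it was 302 with Agilent's processed signals, 126 (108 above 0, 18 below) with median centring in place of loess, 116 with the arrays of a slide averaged, and, chosen after seeing the data, 91 without slide B, 75 (39 above 0, 36 below) without slide E and 57 without slide D, where fewer arrays were fitted. It ranged from 136 to 272 with 1 array left out, the lowest without TGFb array 1 and the highest without IL6 array 2. The T-effector minus Treg count of 25 was 9 without a dye term, 103 with Agilent's processed signals, 9 with every spot in the background model, 41 with quantile normalization of all channels, 3 with median centring, 169 with the spatial trend removed, 45 with slide as a block, 12 with the arrays of a slide averaged, 0 without slide B, 170 without slide E and 0 without slide D. With 1 array left out it ranged from 4 (TGFb array 3) to 126 (IL6 array 2). With the replicate block for the paired arrays the counts were 181 and 34. Of 46 called genes chosen by the rule for named genes, 32 stayed past the threshold with each array left out. Signals not well above background give only bounds.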
